A study of Mus musculus with 12 samples.

Results

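The 10 genes described here encode secreted proteins that are deposited in, or act on, the cardiac extracellular matrix without being collagens. They comprise the matricellular and adhesive proteins Postn, Fn1, Spp1, Thbs1, Thbs4, Sparc and Tnc, the protease inhibitor Timp1, the crosslinking enzyme Lox and the gelatinase Mmp2. They were chosen by name as genes linked to fibrosis, and all 10 were found by their Ensembl identifiers among the 26921 genes of the count table. Expression was measured by RNA sequencing of left ventricular tissue from mice aged 16 weeks, with 6 libraries from WT and 6 from cmGch1 KO animals. Both genotypes carried the floxed Gch1 allele on both chromosomes (Gch1 flox/flox). The WT littermates carried the floxed allele alone, whereas the cmGch1 KO animals also carried Cre recombinase in the heterozygous state, driven by the promoter of α-myosin heavy chain, so that Gch1 is deleted in cardiomyocytes. No Cre control without the floxed allele was among the 12 libraries. Gch1 encodes the enzyme that starts the synthesis of tetrahydrobiopterin, a cofactor of nitric oxide synthases, and the comparison asks which transcripts of the heart differ when cardiomyocytes lose it.

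Matricellular proteins are placed in the matrix by fibroblasts, macrophages, endothelium and other cells, and they bind integrins, growth factors and collagen instead of forming the load-bearing fibres themselves. Several of them, such as tenascin-C, osteopontin and periostin, are sparse in the healthy adult myocardium and are known to return after injury, pressure overload or during fibrosis. Matrix metalloproteinases cut matrix proteins, TIMPs inhibit them and lysyl oxidases join collagen and elastin chains. In a homogenate of ventricular tissue, fewer or more cells of a type and less or more RNA per cell cannot be told apart.

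The libraries held between 19921398 and 37917806 counts. Levels are given as cpm, the counts per 1000000 of the library size over the tested genes, scaled by edgeR's TMM normalisation factor. Gch1 itself, read from all its exons in whole tissue, had 10.7 ± 0.979 cpm (SD, n = 6) in WT and 5.51 ± 0.859 in cmGch1 KO. This was a 0.513-fold level with no overlap between the genotypes (edgeR quasi-likelihood test, false discovery rate (FDR) = 0.000688). The labels gave no sex. The libraries cmGch1 KO 2 and 3 had 87.1 and 99.6 cpm of Xist and no counts of Ddx3y, Eif2s3y, Kdm5d and Uty, whereas the other 10 libraries had at most 0.235 cpm of Xist and between 168 and 193 cpm of these Y-linked genes. Mitochondrial transcripts took 14.9% and 16.1% of the counts in cmGch1 KO 2 and 3, and between 18.3% and 22.9% in the other 10. Sex-linked expression and genotype are partly confounded in these libraries, and the values below are given without cmGch1 KO 2 and 3 where they matter.

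A gene was tested when it exceeded 3 cpm in at least 6 libraries, and 7 of the 10 passed. None of these 7 was called different between the genotypes at an FDR under 0.05, by edgeR or by DESeq2's Wald test, where by edgeR 1.12% of the 11225 tested genes were called, 76 higher and 50 lower in cmGch1 KO. Among the 7, Postn and Fn1 were higher in cmGch1 KO at an unadjusted p under 0.05, as were 7.01% of all tested genes, and none was lower at that level, against 4.51%. Tnc, Timp1 and Spp1 stayed below the expression minimum, and Tnc and Timp1 had the largest ratios between the genotypes of the 10, with cmGch1 KO means 3.72 and 3.33 times the WT means. The median log2 fold change of the 7 tested genes was 0.18, with 6 above 0, beside a median of -0.01 over all tested genes. The median of the 7 was 0.11 without cmGch1 KO 2 and 3, and with a covariate of sex-linked expression it was 0.12. In edgeR with no minimum, the median over all 10 was 0.19 with 9 above 0, none of the 10 was called, and 0.572% of 24643 genes were called.

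**Figure D1:**
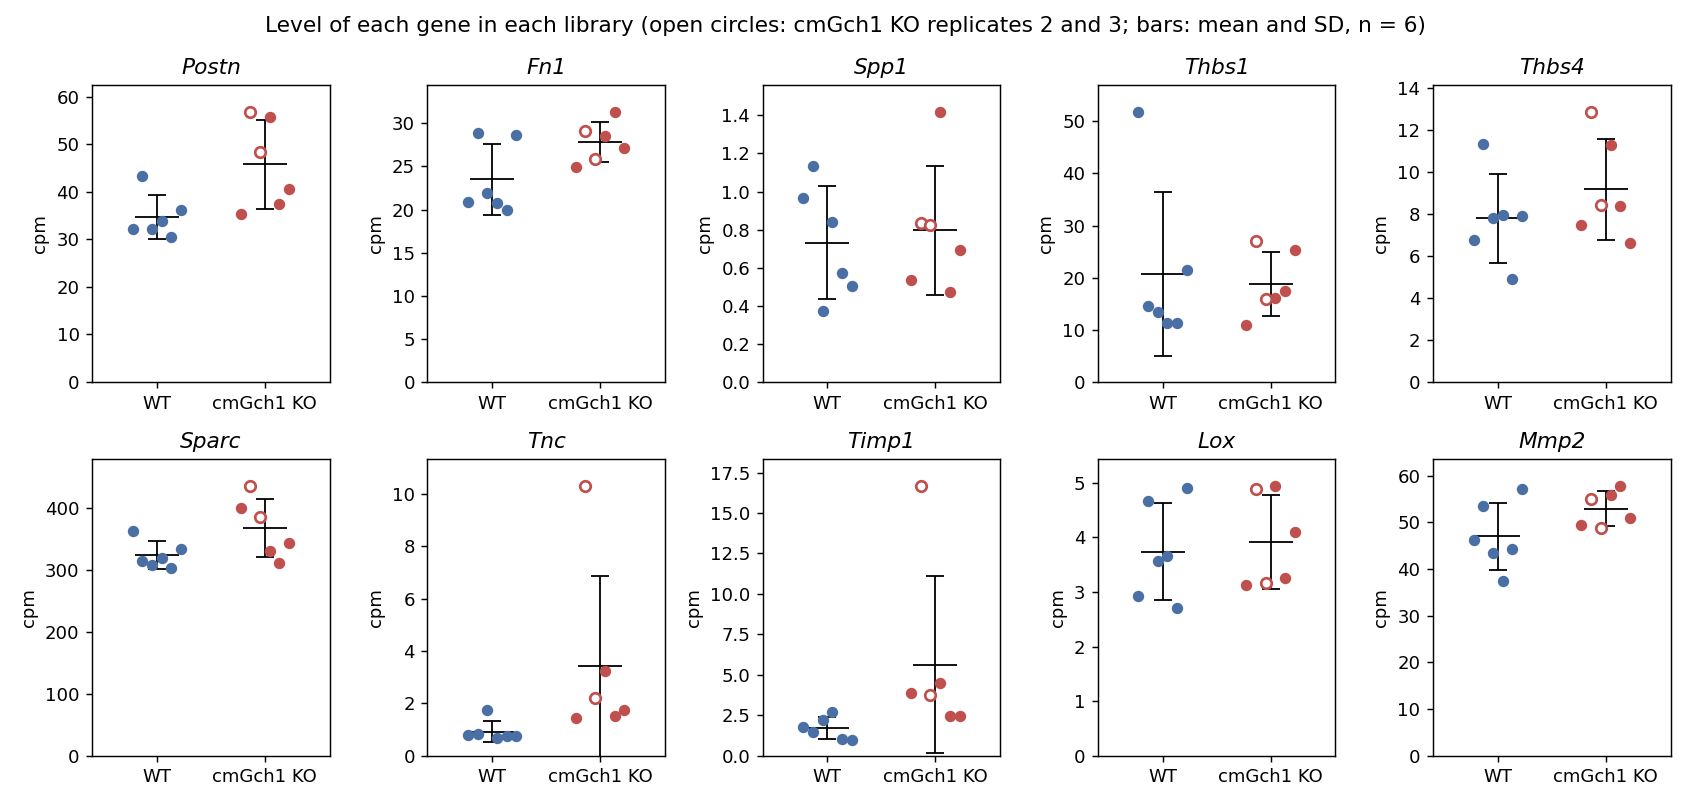
Level of each of the 10 genes in cpm (vertical axes from 0) in each library of the WT (blue) and cmGch1 KO (red) groups, with the mean and SD of 6 libraries in black (the lower bar is cut at 0 where the SD exceeds the mean). Open circles are cmGch1 KO 2 and 3. The genotypes overlap for every gene, Timp1 and Tnc have a single cmGch1 KO library at 16.7 and 10.3 cpm, and Thbs1 a single WT library at 51.8 cpm.

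The sequences before the transcription starts of Postn, Tnc and Timp1 are shown because these 3 genes had the highest cmGch1 KO to WT ratios among the 10 and shared the library with the highest level. The RefSeq promoter table of build GRCm38.p6 held 6 of the 10 genes (Postn, Tnc, Spp1, Sparc, Thbs4 and Timp1). Each line gives the 250 bases before a RefSeq start, 5′ to 3′ on the strand of the gene. The Postn window is chr3:54360857-54361106 on the plus strand, the Tnc window chr4:64047016-64047265 on the minus strand and the Timp1 window chrX:20869916-20870165 on the plus strand. Capitals mark matches, on either strand, to the TATA box as TATAAA or in the form TATATAA, the AP-1 site as TGANTCA, the TEAD site as CATTCC, the CCAAT box by its letters and the GC box as GGGCGG.
Postn: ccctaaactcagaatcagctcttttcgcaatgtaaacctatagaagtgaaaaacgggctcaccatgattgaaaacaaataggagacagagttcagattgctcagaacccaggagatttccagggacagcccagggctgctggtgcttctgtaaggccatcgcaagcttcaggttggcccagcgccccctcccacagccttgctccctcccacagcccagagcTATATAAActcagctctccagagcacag
Tnc: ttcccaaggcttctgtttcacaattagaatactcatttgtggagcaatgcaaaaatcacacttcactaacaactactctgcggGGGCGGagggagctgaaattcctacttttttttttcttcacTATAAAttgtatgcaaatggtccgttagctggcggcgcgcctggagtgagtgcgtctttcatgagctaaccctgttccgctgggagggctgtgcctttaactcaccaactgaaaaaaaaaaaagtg
Timp1: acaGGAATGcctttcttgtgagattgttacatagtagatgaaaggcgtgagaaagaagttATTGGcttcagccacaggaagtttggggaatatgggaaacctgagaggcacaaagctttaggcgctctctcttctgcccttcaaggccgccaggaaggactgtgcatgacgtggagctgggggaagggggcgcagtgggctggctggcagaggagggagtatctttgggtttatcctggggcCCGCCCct
The Postn window held TATAAA from position -26 to -21, counted back from the base before the start as -1, and this match overlapped TATATAA from -28 to -22. In the Tnc window TATAAA lay from -126 to -121 and GGGCGG from -167 to -162. The Timp1 window had no TATA match and held, on the reverse strand, CATTCC from -247 to -242, CCAAT from -190 to -186 and GGGCGG from -8 to -3. Over 32851 mouse promoter windows of the same length, TATAAA was in 12.4% and the form TATATAA in 3.04%. The TEAD letters were in 12.6% of these windows, the CCAAT box in 33.8% and the GC box in 32.7%. The AP-1 letters were in 6.75% and in no window of the 6 genes. No match was shared by all 3 printed windows.

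Periostin, the product of Postn, is a matricellular protein of activated fibroblasts that binds integrins and promotes collagen assembly. The gene lies at chr3:54361109-54391037 on the plus strand (GRCm38). In WT its level ran from 30.5 cpm through a median of 33.1 to 43.2 cpm. In cmGch1 KO the lowest, median and highest libraries had 35.4, 44.5 and 56.8 cpm. Every cmGch1 KO library was above the WT median and 3 of 6 were above the highest WT library, so the genotypes overlapped. The mean of 34.7 ± 4.60 cpm in WT (SD, n = 6) stood beside 45.7 ± 9.28 cpm in cmGch1 KO. By edgeR the log2 fold change was 0.40 ± 0.13 (SE) with FDR = 0.192. The two-sided exact permutation test of the mean cpm over all splits of 6 against 6 gave p = 0.0281. Without cmGch1 KO 2 and 3 the ratio of means was 1.22 in place of 1.32 (exact permutation p = 0.0905, 210 splits). In edgeR without these libraries the log2 fold change was 0.29 (FDR = 0.743). With all libraries and a covariate of sex-linked expression it was 0.30 (FDR = 0.639). Beside its closest relative, the integrin ligand Tgfbi, Postn took 42.3% ± 2.96 of the pair's cpm per kb in WT and 48.3% ± 6.67 in cmGch1 KO, with overlapping ranges.

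Fibronectin, encoded by Fn1 at chr1:71585520-71653200 on the minus strand, is the adhesive glycoprotein on which new matrix is laid down. Its WT median was 21.4 cpm, WT 5 was the lowest, and WT 2 and WT 6 stood above the other 4 at 28.8 and 28.6 cpm. The cmGch1 KO libraries ran from 24.9 through 27.9 to 31.3 cpm, so that all 6 were above the 4 lower WT libraries and 2 were above every WT library. The mean was 23.5 ± 4.09 cpm in WT and 27.8 ± 2.32 in the other genotype (SD, n = 6). On the log2 scale this was a difference of 0.24 ± 0.11 (SE, FDR = 0.390). The exact permutation p was 0.0541. An antisense gene, Apol7d, shares 292 exon bases with Fn1.

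Osteopontin, encoded by Spp1, is an integrin ligand made in quantity by activated macrophages. Spp1 (chr5:104435118-104441050, plus strand) was near the lower limit of detection, with 10 to 47 counts a library. WT libraries ran from 0.372 through 0.705 to 1.14 cpm and cmGch1 KO libraries from 0.470 through 0.757 to 1.42 cpm, with the ranges overlapping almost fully. The difference in means, 0.0644 cpm, was smaller than the SD of either genotype (two-sided exact permutation p = 0.742). A same-strand gene of uncertain status, Gm42793, shares 309 of its exon bases.

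Thrombospondin-1 (Thbs1) activates latent TGF-β and inhibits vessel growth, and thrombospondin-4 (Thbs4) is a related matrix protein of tendon and stressed heart. Thbs1 (chr2:118111876-118127133, plus strand) was dominated by WT 1, which had 51.8 cpm, 2.42 times the next WT library. The other 5 WT libraries had 11.3 to 21.4 cpm, and the cmGch1 KO libraries ran from 11.0 through 16.8 to 27.1 cpm. The WT mean of 20.7 ± 15.7 cpm and the cmGch1 KO mean of 18.8 ± 6.15 cpm (SD) differed by a log2 fold change of -0.14 ± 0.36 (SE, FDR = 0.945). Without WT 1 the sign turned, to 0.38 on the log2 scale with FDR = 0.558, so the direction of Thbs1 rested on that library. Thbs4 (chr13:92751590-92794818, minus strand) ran from 4.92 through 7.88 to 11.4 cpm in WT and from 6.63 through 8.41 to 12.9 cpm in cmGch1 KO. Its log2 fold change of 0.23 ± 0.20 (SE, FDR = 0.746) lay within the overlap of the genotypes, and without cmGch1 KO 2 and 3 the ratio of means was 1.08. Neither thrombospondin thus separated the genotypes.

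SPARC, or osteonectin, binds collagen and takes part in its processing, and it was by far the most abundant of the 10. Sparc (chr11:55394500-55423183, minus strand) ran from 302 through 317 to 363 cpm in WT, where WT 1 was the highest, and from 310 through 364 to 436 cpm in cmGch1 KO. The 3 cmGch1 KO libraries numbered 1, 2 and 3 were above every WT library and the other 3 lay within the WT range. The mean was 324 ± 22.2 cpm in WT (SD, n = 6) and 368 ± 47.5 cpm in cmGch1 KO, 0.18 ± 0.09 apart on the log2 scale (SE, FDR = 0.434). Without cmGch1 KO 2 and 3 the ratio of means was 1.07 in place of 1.14 (exact permutation p = 0.300).

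Tenascin-C, encoded by Tnc at chr4:63959785-64047015 on the minus strand, is a hexameric matricellular glycoprotein that loosens the adhesion of cells and marks remodelling tissue. In WT 5 libraries lay close together between 0.670 and 0.815 cpm, and WT 3 stood apart at 1.75 cpm. The cmGch1 KO libraries had 1.44, 10.3, 2.21, 3.23, 1.53 and 1.75 cpm in the order of their numbers. All 6 were therefore above the 5 lower WT libraries, 3 were above WT 3 as well, and cmGch1 KO 2 was 3.20 times the next highest cmGch1 KO library. The means were 0.918 ± 0.410 and 3.41 ± 3.45 cpm (SD, n = 6 each; two-sided exact permutation p = 0.00866, unadjusted). Without cmGch1 KO 2 the mean of the remaining 5 was 2.03 ± 0.733 cpm, 2.21 times that of WT (exact permutation p = 0.0108, 462 splits), and without cmGch1 KO 2 and 3 the ratio was 2.16 (p = 0.0190 by the same exact test). In edgeR with no expression minimum the log2 fold change was 1.86 ± 0.44 (SE, FDR = 0.0753). With each library left out in turn this fit called Tnc in 2 of 12 cases, without cmGch1 KO 1 (FDR = 0.0343) and without cmGch1 KO 6 (FDR = 0.0473). The share of all genes called in those fits is not given here. With the expression minimum, leaving out cmGch1 KO 1 gave 111 genes higher and 96 lower, against 76 and 50 with all 12 libraries. Leaving out cmGch1 KO 6 gave 63 and 45. For Tnc, the fit with no minimum gave 1.12 (FDR = 0.265) without cmGch1 KO 2 and 3 together. With a covariate of sex-linked expression it gave 1.16 (FDR = 0.427). The counts behind these values were between 16 and 222 a library, and 176 exon bases are shared with the gene 8030451A03Rik on the other strand.

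TIMP-1 is a secreted inhibitor of metalloproteinases whose transcript is inducible, and Timp1 (chrX:20870166-20874735, plus strand) lies inside an intron of Syn1 on the other strand. The WT libraries ran from 0.963 through 1.63 to 2.71 cpm. The cmGch1 KO libraries had 3.90, 16.7, 3.76, 4.47, 2.47 and 2.47 cpm in the order of their numbers. Here 4 of 6 were above every WT library, the other 2 exceeded 5 of the 6 WT libraries, and cmGch1 KO 2 was 3.74 times the next. The means were 1.69 ± 0.682 and 5.63 ± 5.48 cpm (SD, n = 6 each; two-sided exact permutation p = 0.00649, unadjusted). Without cmGch1 KO 2 the cmGch1 KO mean was 3.41 ± 0.903 cpm, 2.02 times that of WT (exact permutation p = 0.00866), and without cmGch1 KO 2 and 3 the ratio was 1.97 (p = 0.0190 by the same exact test). In edgeR with no expression minimum the log2 fold change was 1.68 ± 0.42 (SE, FDR = 0.0921). Of 12 such fits with a library left out, 1 called Timp1, that without cmGch1 KO 6 (FDR = 0.0451). The share of all genes called in that fit is not given here. Without cmGch1 KO 2 and 3 together, edgeR with no minimum gave 0.95 (FDR = 0.328). Timp1 is X-linked, and the 2 libraries with high Xist, cmGch1 KO 2 and 3, had 16.7 and 3.76 cpm. For Timp1, edgeR with no minimum and a covariate of sex-linked expression gave a log2 fold change of 1.0002 (FDR = 0.501), against 1.68 without the covariate. Sex-linked expression is partly confounded with genotype here, and its part in the level of Timp1 was not tested apart from genotype.

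Lysyl oxidase, encoded by Lox, oxidises lysines of collagen and elastin so that the chains crosslink. Lox (chr18:52516067-52529867, minus strand) averaged 3.74 ± 0.893 cpm over the 6 WT libraries and 3.91 ± 0.858 cpm (SD) over the 6 of cmGch1 KO. The WT range of 2.70 to 4.91 cpm and the cmGch1 KO range of 3.12 to 4.95 cpm nearly coincided. The log2 fold change was 0.07 ± 0.18 (SE, FDR = 0.943), and it changed sign when WT 5, cmGch1 KO 2 or cmGch1 KO 4 was left out. Lox gave no difference that these 12 libraries could resolve.

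The gelatinase MMP-2, which degrades denatured collagen and basement membrane, is made by resting as well as activated fibroblasts. Mmp2 (chr8:92827291-92853420, plus strand) ran from 37.5 through 45.2 to 57.1 cpm in WT and from 48.7 through 53.0 to 57.8 cpm in cmGch1 KO. All 6 cmGch1 KO libraries were above the 4 lower WT libraries, while WT 2 and WT 6 lay inside the cmGch1 KO range. The log2 fold change was 0.17 ± 0.10 (SE, FDR = 0.549), and without cmGch1 KO 2 and 3 the ratio of means was 1.14 in place of 1.13.

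**Figure D2:**
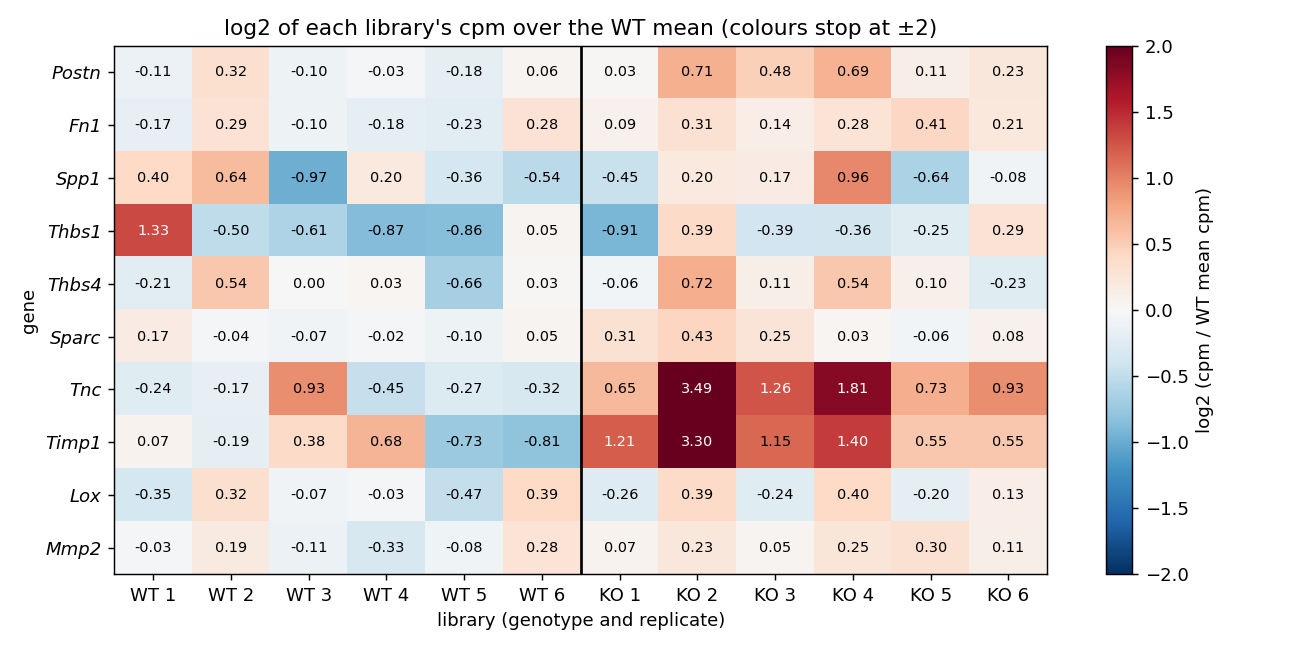
Each cell gives the log2 of a library's cpm over the WT mean for 1 gene (rows) in 1 library (columns, KO standing for cmGch1 KO); red is above and blue below the WT mean, with colours ending at ±2. The cmGch1 KO 2 column holds the values of 3.49 for Tnc and 3.30 for Timp1, and all cmGch1 KO libraries are above 0 for Postn, Fn1, Tnc, Timp1 and Mmp2.

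Read by library, cmGch1 KO 2 had the highest level of the 12 for 5 of the 10 genes (Postn, Thbs4, Sparc, Tnc and Timp1), cmGch1 KO 4 for Spp1 and Lox, cmGch1 KO 5 for Fn1 and Mmp2, and WT 1 for Thbs1. WT 5 had the lowest level for Postn, Fn1, Thbs4, Sparc and Lox. The share of all tested genes for which cmGch1 KO 2 was the highest of the 12 is not given here. By a stricter measure, it exceeded the rest of its genotype by over 0.625 of the genotype's range. This held for 62 of the 11225 tested genes (0.552%), against 456 (4.06%) for cmGch1 KO 1. Among the 10 genes, cmGch1 KO 2 met this measure for Tnc and Timp1, which were below the expression minimum and so outside the 11225. The same measure was met by WT 1, the library with the high Thbs1, for 118 genes (1.05%).

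**Figure D3:**
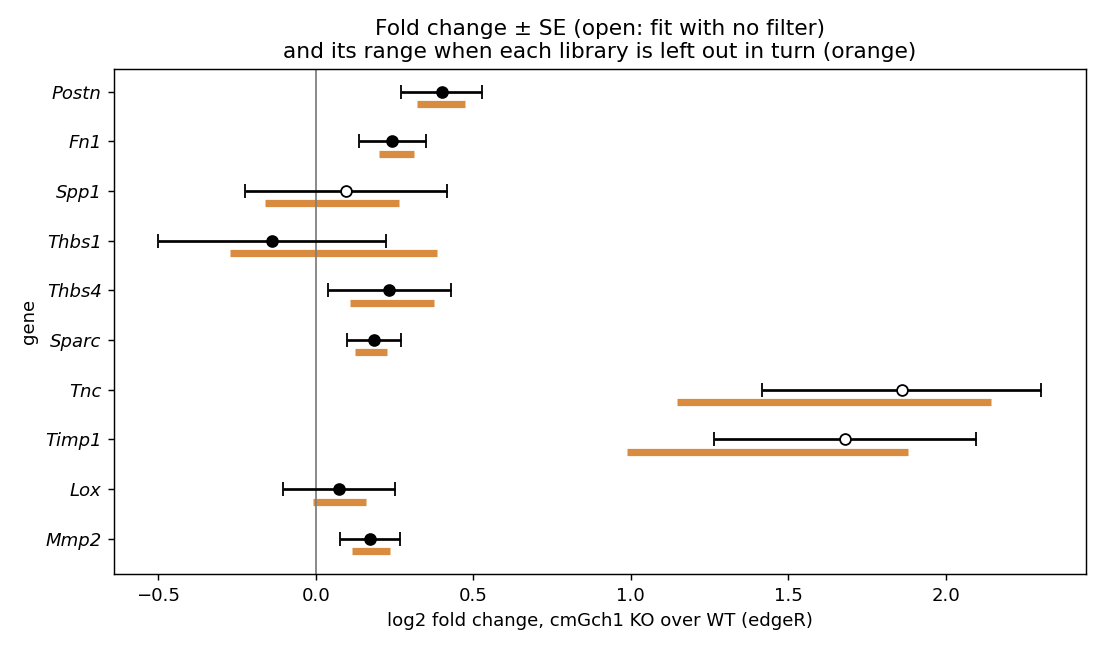
Log2 fold change of cmGch1 KO over WT by edgeR (points, bars ± SE), from the fit with the expression minimum (filled) or with none (open, for Spp1, Tnc and Timp1), and the range of the same estimate when each of the 12 libraries is left out in turn (orange). The ranges of Thbs1, Lox and Spp1 cross 0, that of Postn runs from 0.32 to 0.47, and those of Tnc and Timp1 begin at 1.15 and 0.99.

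Levels were set between genes as cpm per kb of exon (union of GENCODE M21 exons). In WT the order was Sparc at 85.5 ± 5.85 (SD, n = 6), Mmp2 at 13.9 ± 2.12, Postn at 3.98 ± 0.529, Thbs1 at 3.41 ± 2.58, Thbs4 at 2.37 ± 0.639, Fn1 at 2.01 ± 0.350, Timp1 at 1.90 ± 0.768, Lox at 0.782 ± 0.187, Spp1 at 0.444 ± 0.179 and Tnc at 0.118 ± 0.0527 cpm per kb. The WT ranges of neighbours from Postn down to Timp1 overlapped, as did those of Lox and Spp1, and the steps from Sparc to Mmp2, Mmp2 to Postn, Timp1 to Lox and Spp1 to Tnc did not. The most abundant gene thus exceeded the least abundant by 724 times per kb. In cmGch1 KO the mean of Timp1 was 6.34 ± 6.17 cpm per kb, above the mean of 5.26 ± 1.07 of Postn, although 5 of the 6 Timp1 libraries were below that Postn mean.

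**Figure D4:**
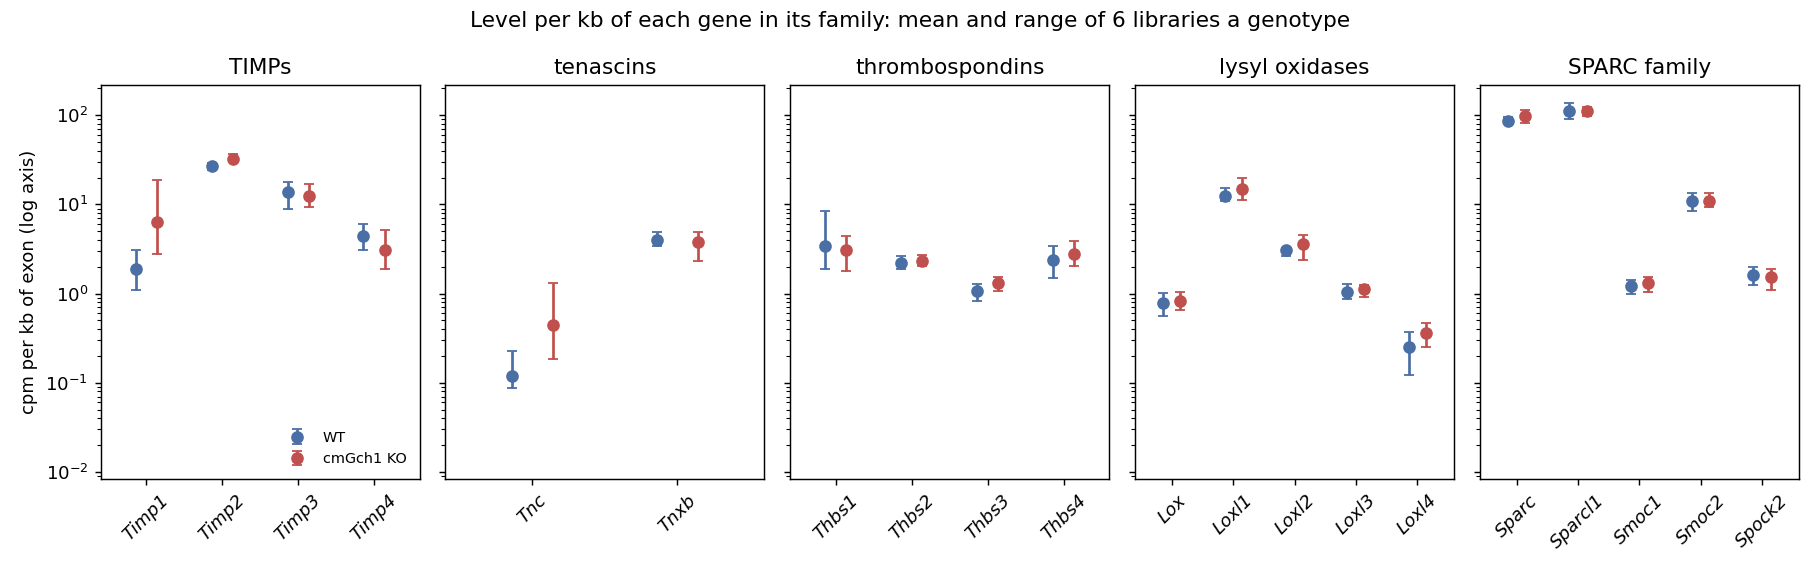
Level per kb of exon (cpm per kb, log axis) of Timp1, Tnc, Thbs1, Thbs4, Lox and Sparc beside the other genes of their families in WT (blue) and cmGch1 KO (red); points are means and bars the range of 6 libraries. Genes listed at 0 in any library (Tnn, Tnr and Spock1) are left out. Timp1 and Tnc are minor members of their families in WT, at 1.90 and 0.118 cpm per kb.

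Placed among their families on this per-kb scale, Timp1, Tnc and Lox were minor members in WT, whereas Postn, Sparc, Mmp2, Thbs1 and Thbs4 held larger shares. Timp1 took 4.04% ± 1.53 (SD, n = 6) of the TIMP total in WT, where Timp2 took 57.6% ± 5.43 and Timp3 29.1% ± 4.05, and 10.9% ± 8.75 in cmGch1 KO, or 7.42% ± 2.13 (n = 5) without cmGch1 KO 2. The share of Timp4, an inhibitor enriched in the heart, was 9.25% ± 2.29 in WT and 5.68% ± 2.31 in cmGch1 KO. Tnc took 2.85% ± 1.18 of the tenascin total in WT and 10.1% ± 8.95 in cmGch1 KO, or 6.53% ± 2.69 (n = 5) without cmGch1 KO 2, nearly all of the rest being Tnxb, the tenascin of resting connective tissue. Lox was 4.44% ± 0.798 of the lysyl oxidase total in WT, where Loxl1 was 70.3% ± 2.50. Sparc shared its family with the endothelial relative Sparcl1, at 40.8% ± 3.52 and 52.6% ± 3.42 of the total in WT. Mmp2 took 26.1% ± 2.23 of the summed MMPs in WT, below Mmp15 at 49.6% ± 2.04. Thbs1 took 34.6% ± 14.4 and Thbs4 27.1% ± 7.40 of the thrombospondin total in WT, but 29.1% ± 5.24 and 29.6% ± 4.94 (n = 5) without WT 1. Among the other family genes, Timp2 had 105 ± 6.65 cpm in WT and 127 ± 8.79 in cmGch1 KO with no overlap between the genotypes (log2 fold change 0.27 ± 0.06, FDR = 0.0653), a separation seen for 1.87% of all tested genes, and it did not pass the FDR threshold. Timp4 had 26.2 ± 8.63 and 17.9 ± 7.25 cpm (FDR = 0.456), and Thbs3 had 5.17 ± 0.863 and 6.41 ± 0.896 cpm (FDR = 0.345).

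The wider matrix programme was read from 6 lists with 118 genes, of which 96 were tested. Of these, 3 were higher in cmGch1 KO at an FDR under 0.05 and none was lower, which is 3.13% beside 1.12% of all tested genes. At an unadjusted p under 0.05 there were 22 higher (22.9%, beside 7.01% of all tested genes) and 1 lower (1.04%, beside 4.51%). Without cmGch1 KO 2 and 3, or with a covariate of sex-linked expression, no gene of the 6 lists was called. The lists were chosen with earlier results of these data known, so these shares describe them and are no independent test. The list medians of the log2 fold change were 0.08 for matricellular relatives, 0.08 for proteoglycans and elastic fibre, 0.09 for metalloproteinases, 0.17 for protease inhibitors and the plasminogen system, 0.08 for crosslinking and collagen processing, and 0.14 for matrix receptors. All 6 lay above the median of -0.01 of the tested genes, with 68 of the 96 genes above 0 (70.8%, beside 46.7% of all tested genes).

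The 3 called genes each came from a different list, and none had a library of 1 genotype inside the range of the other. Spondin-2 (Spon2), a secreted relative of the matricellular proteins that acts in innate immunity, had 6.80 ± 1.97 cpm in WT and 15.2 ± 4.84 in cmGch1 KO (log2 fold change 1.16 ± 0.22, FDR = 0.0198). Pcolce, which enhances the cleavage of procollagen by BMP-1, had 40.3 ± 3.82 and 58.0 ± 8.66 cpm (0.52 ± 0.10, FDR = 0.0160). Ddr1, a receptor tyrosine kinase for collagen, had 29.6 ± 2.67 and 42.7 ± 6.32 cpm (0.53 ± 0.10, FDR = 0.0158). The highest library was cmGch1 KO 2 for all 3, as for Postn, Tnc and Timp1. Without cmGch1 KO 2 and 3 none of the 3 was called, with log2 fold changes of 0.97 (FDR = 0.120), 0.41 (FDR = 0.0774) and 0.40 (FDR = 0.0841). Leaving out single libraries ended the call of Spon2 for WT 4 and cmGch1 KO 5 (highest FDR 0.0565), of Pcolce for WT 3, WT 5 and cmGch1 KO 3 (0.0514) and of Ddr1 for WT 3 and cmGch1 KO 3 (0.0624).

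**Figure D5:**
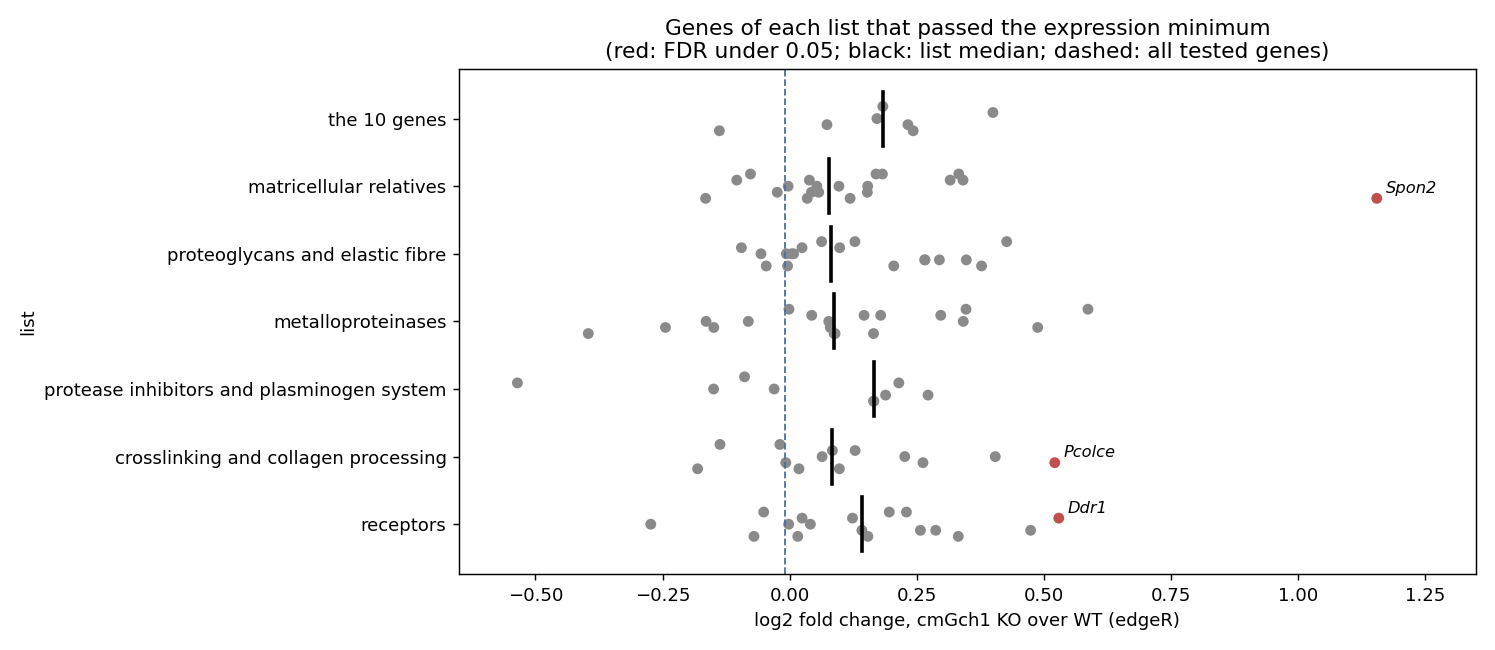
Log2 fold change of cmGch1 KO over WT by edgeR (horizontal axis) of every gene that passed the expression minimum, for the 10 genes and the 6 lists of other matrix genes (rows); red points passed an FDR of 0.05, black lines are list medians and the dashed line the median of all tested genes, -0.01. Spon2, Pcolce and Ddr1 are the points that passed.

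In the lists with no called gene, the genes with the smallest p-values are given as values. Biglycan (Bgn), a small proteoglycan that binds collagen, had 148 ± 13.3 cpm in WT and 181 ± 19.8 in cmGch1 KO (FDR = 0.134), and Emilin1 of the elastic fibre had 31.5 ± 3.74 and 42.4 ± 11.7 cpm (FDR = 0.220). Among metalloproteinases Mmp14, the membrane protease that activates pro-MMP-2, had 18.4 ± 2.03 and 23.4 ± 2.35 cpm (FDR = 0.105), and Mmp23 had 5.55 ± 0.911 and 7.81 ± 1.15 cpm (FDR = 0.116). Of the protease inhibitors, Serping1 had 63.9 ± 5.45 and 71.7 ± 4.54 cpm (FDR = 0.363), after Timp2. None of these 5 passed the threshold.

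Markers of cell types were summed for 12 lists. The 8 fibroblast markers, all detected in every library, summed to 549 to 738 cpm in WT and 662 to 884 cpm in cmGch1 KO, with 7 of 8 higher in mean (two-sided exact permutation p = 0.0260, 0.156 after Benjamini-Hochberg adjustment over the 12 lists). The ratio of the fibroblast sums was 1.18, and 1.11 without cmGch1 KO 2 and 3 (exact permutation p = 0.119). The highest fibroblast sum was again that of cmGch1 KO 2. Mean sums were 637 (WT) and 753 cpm (cmGch1 KO). Much of that difference came from the collagen gene Col3a1, with means of 225 (WT) and 305 cpm (cmGch1 KO). Col3a1 had a log2 fold change of 0.44 and Tcf21 of 0.38. The rest of the list lay between -0.10 (Scara5) and 0.18 (Pi16). The 6 cardiomyocyte markers summed to 49740 to 53380 cpm in WT and 43950 to 50990 cpm in cmGch1 KO, with 5 of 6 lower (p = 0.00433, adjusted 0.0519, by the same exact permutation test). The 11 macrophage markers summed to 266 to 410 and 346 to 480 cpm, with 10 of 11 higher in mean (p = 0.0671, adjusted 0.268, exact permutation test). On the mean log2 cpm of a list, that test gave 0.00866 for macrophage, 0.0368 for fibroblast and 0.00217 for cardiomyocyte, all unadjusted. By edgeR, 7 of 9 tested macrophage and 2 of 8 fibroblast markers were higher at an unadjusted p under 0.05, beside 7.01% of all tested genes. None of these was called. In cmGch1 KO 2 the macrophage sum was 421 cpm, inside the range of the other cmGch1 KO libraries. The other 9 lists (activated fibroblast, lymphocyte and neutrophil, endothelium, smooth muscle and pericyte, atrium, epicardium and mesothelium, valve and tendon, nerve and glia, adipocyte) had ratios between 0.820 and 1.13 and unadjusted exact permutation p-values between 0.0909 and 0.911. No marker of the 12 lists was at 0 in all libraries. Of all list genes Acta2, the actin of smooth muscle and of myofibroblasts, had the smallest p, with 126 ± 14.3 cpm in WT libraries against 200 ± 32.0 in those of cmGch1 KO (log2 fold change 0.66 ± 0.11, FDR = 0.00672). Its log2 fold change was 0.51 without cmGch1 KO 2 and 3, with FDR = 0.0506. With a covariate of sex-linked expression it was 0.53 (FDR = 0.0247). Acta2 was called in 12 of 12 fits with a library left out. The other 6 genes of its smooth muscle and pericyte list were not called, and 5 of them had log2 fold changes below 0, from -0.39 for Tagln to -0.06 for Rgs5, with Pdgfrb at 0.12. The part of fibroblast or macrophage content in the values of Postn, Tnc and Timp1 was not tested. That of sex was not tested apart from genotype. With a covariate of sex-linked expression, none of these 3 genes was called (Postn FDR = 0.639, and with no minimum Tnc FDR = 0.427 and Timp1 FDR = 0.501).

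Among genes outside the 10, those whose log2 cpm over the 12 libraries was most like the mean standardised log2 cpm of the 7 tested genes were Pcdhgc4 (Pearson r = 0.909), Spon1 (0.898), Adamts2 (0.883), Rab7b (0.872) and Serpina3n (0.864). These are descriptions over libraries that share tissue and preparation. Spon1 is a secreted matrix relative of Spon2 and Adamts2 the protease that removes the amino-terminal propeptide of procollagens. None of the 5 was called between the genotypes, with FDR between 0.304 and 0.738.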

How the data were processed

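Total RNA of left ventricular tissue was made into paired-end dUTP libraries and sequenced on a NovaSeq system. The authors deposited gene counts made with HISAT2, Picard and featureCounts on GRCm38, and a table of normalised log2 values. The annotation, the strand setting and the normalisation of the log2 table are not given in the sources used here. Of 26921 identifiers, 26582 matched GENCODE M21 (98.7%). Counts were tested with edgeR 4.0.16 in R 4.3.3 (quasi-likelihood, TMM, cpm over 3 in at least 6 libraries, Benjamini-Hochberg FDR under 0.05), after a check on simulated data. Reported cpm use the library size over the tested genes, scaled by the TMM factor, and the minimum of 3 cpm used the unscaled library totals. DESeq2 1.42.0, limma 3.58.1 on the deposited log2 values, other filters and left-out libraries were alternatives. Permutation tests were exact and two-sided over all splits of 6 against 6 (smallest p 0.00216). Members, lists and tests were chosen with earlier results of these data known. Named were the 10 genes, Gch1, list genes with FDR under 0.05, otherwise the 2 smallest p of a pathway list, the 5 most alike genes and marker lists that differed; genes of the same families, added after their values were seen, are given too. Replicate numbers were not taken to pair the libraries. Per the study's methods, each replicate is 1 animal. Library totals of 19921398 to 37917806 counts left Spp1 with as few as 10 counts.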

Additional observations from a re-analysis of the deposited data

Results flagged for a closer look

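Among the 20 sets of 6 libraries (10 genes in each genotype), 4 had a library whose distance to the nearest of the others exceeded 0.625 of the whole range. The nominal rate of this rule is about 5% of sets, and that rate was not tested for genes at low counts such as Tnc and Timp1. Thbs1 in WT 1 was at 51.81 cpm with the next WT library at 21.42 cpm. Tnc in WT 3 was at 1.749 cpm with the next at 0.8154 cpm. In cmGch1 KO 2, Tnc was at 10.32 cpm with the next cmGch1 KO library at 3.228 cpm, and Timp1 at 16.69 cpm with the next at 4.465 cpm. The 4 values come from 3 libraries, and the pair in cmGch1 KO 2 is not independent, since it comes from the same RNA.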

How the results depend on the processing

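With the expression minimum, none of the 10 genes that was tested was called under any alternative, and Postn, Fn1, Thbs4, Sparc, Mmp2, Tnc and Timp1 kept a positive sign in every one. Thbs1 turned positive with the replicate block (0.0859), without WT 1 (0.3841) and in the deposited log2 values (0.01). Lox turned negative without WT 5 (-0.0052), cmGch1 KO 2 (-0.0011) or cmGch1 KO 4 (-0.008). Spp1 did without WT 3 (-0.0134, or -0.0329 with no filter) or cmGch1 KO 4 (-0.1237, or -0.1604 with no filter). With single libraries left out Thbs1 ran from -0.2713 to 0.3841, Lox from -0.008 to 0.1602 and Spp1 from -0.1237 to 0.2909. The cause of these changes was not tested. DESeq2's Wald test, the block, the sex covariate and the stricter filter gave no value for Spp1, Tnc and Timp1 on the filtered genes.

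Genes called, against 76 higher and 50 lower, were 116 higher with library size scaling, which moved the median of all genes to 0.07, 218 higher and 155 lower with DESeq2's Wald test, 41 and 24 with a covariate of sex-linked expression, and 16 and 18 without cmGch1 KO 2 and 3. Leaving out 1 library gave 44 to 111 higher and 28 to 96 lower, with changes over 1.5 times for WT 3, WT 5, cmGch1 KO 2 and 3 (higher) and WT 3, 4, 5 and cmGch1 KO 1 (lower). Called list genes, against 3, were 5, 10, 0 and 0 under the same 4 settings and 1 to 6 with a library left out (1 without WT 3 or cmGch1 KO 3, 6 without cmGch1 KO 1). Marker lists that differed at an unadjusted p under 0.05 were 2, and 1 (cardiomyocyte) without cmGch1 KO 2 and 3, or 3 with the mean log2 cpm of a list, macrophage among them (exact permutation p = 0.00866).

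The replicate numbers were tested as a block. Libraries with the same number had correlations of their deviations from -0.128 to 0.676, above 0.1 for 3 of the 6 numbers, and 5 of 12 correlated best with their own number, a hint from the data and not from the design. As the labels tie no number to a litter, batch or day, and not every pair correlated, the numbers were not taken to pair the libraries. The replicate block gave 112 genes higher and 76 lower, 6 list genes and none of the 10. With the block and no filter, a pair of settings added after seeing the data, 478 genes of 24643 and 3 of the 10 were called: Postn (0.3693, FDR = 0.0241), Tnc (FDR = 0.00325) and Timp1 (FDR = 0.00145), and Thbs1 had 0.0701. With no filter and a library left out, 0 to 2 of the 10 were called. The share of all genes called in those fits is not given here. With no filter and either the sex covariate or cmGch1 KO 2 and 3 left out together, none of the 10 was called.

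Depth limits Spp1, Tnc and Timp1 most, whose lowest libraries had 10, 16 and 21 counts.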
